A study of Mus musculus with 16 samples.

Results

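The genes described are the amino acid transporters of 6 solute carrier (Slc) families, Slc1a, Slc3a, Slc7a, Slc36a, Slc38a and Slc43a, in the ear skin of wild-type (WT) C57BL/6 mice with inflammation resembling atopic dermatitis. Members were chosen by gene symbol, and those with a summed read count of 30 or more over the 6 libraries were tested: 42 of the 45777 rows of the gene table carried such a symbol and 35 of them reached that sum, as did 21631 rows of the whole table. The sum takes no account of the groups. The families were proposed with the difference between the groups already known, however, so the counts of members called below are descriptions and their share of the list supports nothing.

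Both groups of mice had 20 µL of 50 µM MC903 (calcipotriol, a vitamin D analogue that inflames the skin) put on both ears daily for 10 days. One group also received an antibody that neutralises the cytokine oncostatin M (anti-OSM), 20 µg per mouse into the skin every other day. The other received an antibody against the neutrophil surface protein Ly6G (anti-Ly6G), 200 µg per mouse into the peritoneum 2 days before and 1 and 4 days after MC903. Each group had 3 libraries of polyA RNA, and the 10 libraries of control ears and of ears given MC903 without antibody were not analysed here. All values are therefore differences between the antibodies, which antibody moved a gene cannot be told, and agent, route and schedule cannot be told apart. The labels give neither an isotype antibody nor the age of the mice, and whether the replicates were separate mice is not stated, which leaves p-values to measure spread among libraries that may be technical.

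Cells take up and exchange amino acids through these proteins. The heavy chain Slc3a2 (4F2hc, CD98) is joined by a disulfide bond to 1 of several light chains of the Slc7a family, among them Slc7a5 (LAT1), which brings in leucine and other large neutral amino acids in exchange for glutamine, and Slc7a11 (xCT), which brings in cystine in exchange for glutamate. Other Slc7a proteins carry arginine and lysine, Slc1a proteins carry glutamate or small neutral amino acids, and Slc38a proteins carry glutamine and other neutral amino acids with sodium. When amino acids run short or protein synthesis is stressed, the transcription factor ATF4 raises several of these genes together with enzymes of amino acid synthesis. It acts through a short DNA sequence, the C/EBP-ATF response element. In skin these transporters supply amino acids for protein synthesis in keratinocytes, and arginine taken up by macrophages feeds nitric oxide and polyamine synthesis.

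Promoter windows, 250 bases before to 50 after an annotated start, were present in RefSeq (GRCm38.p6) for 26 of the 35 members. The 9 without one were Slc1a5, Slc36a2, Slc38a1, Slc38a3, Slc43a3, Slc7a2, Slc7a3, Slc7a4 and Slc7a5. The element was searched on both strands as TGATGNAAN, where N is any base. It was found in windows of 3 of the 26 members, Slc7a11, Slc1a4 and Slc7a7, and in those of 4.5% of all 27025 genes with a window. A STAT site (TTCNNNGAA, both strands), the kind of sequence bound by STAT3, a factor that oncostatin M activates, was found for 4 members, Slc7a11, Slc7a1, Slc38a9 and Slc1a3, and for 9.55% of all genes. The windows shown are those of Slc7a11 and Slc1a4, which hold the first element and of which Slc7a11 was called lower with anti-OSM and Slc1a4 was not called, with the element in capitals, and of Slc7a1, the member with the smallest p, with the STAT site in capitals. Those of Slc7a11 and Slc7a1 belong to starts inside the annotated span of the gene, and that of Slc1a4 to the start at its end. All 3 genes lie on the minus strand and the sequences run 5′ to 3′ along it. The Slc7a11 window (chr3:50443564-50443863) holds 2 copies of the element facing each other with 9 bases between them, and those of Slc1a4 (chr11:20332664-20332963) and Slc7a1 (chr5:148392766-148393065) hold 1 match each. A match describes the letters only, and a window without one leaves the rest of the gene unsearched.
Slc7a11: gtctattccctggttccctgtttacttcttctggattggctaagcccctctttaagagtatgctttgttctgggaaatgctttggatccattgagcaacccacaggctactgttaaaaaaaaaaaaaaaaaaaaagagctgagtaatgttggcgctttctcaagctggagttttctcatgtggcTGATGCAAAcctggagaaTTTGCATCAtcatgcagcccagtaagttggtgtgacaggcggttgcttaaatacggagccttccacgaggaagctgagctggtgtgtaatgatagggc
Slc1a4: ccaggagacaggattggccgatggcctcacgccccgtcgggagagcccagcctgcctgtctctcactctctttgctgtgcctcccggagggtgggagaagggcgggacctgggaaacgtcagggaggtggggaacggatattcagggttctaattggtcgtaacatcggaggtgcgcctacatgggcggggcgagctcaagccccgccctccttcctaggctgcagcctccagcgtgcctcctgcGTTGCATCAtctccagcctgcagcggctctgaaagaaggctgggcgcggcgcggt
Slc7a1: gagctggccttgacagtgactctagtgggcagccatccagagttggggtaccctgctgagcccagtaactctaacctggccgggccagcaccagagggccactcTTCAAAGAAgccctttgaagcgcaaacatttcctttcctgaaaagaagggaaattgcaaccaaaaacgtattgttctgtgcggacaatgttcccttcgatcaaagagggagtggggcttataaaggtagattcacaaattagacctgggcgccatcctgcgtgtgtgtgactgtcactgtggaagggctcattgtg

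Total read counts ranged from 52163179 to 59063578 in the anti-OSM libraries and from 59381146 to 64122588 in the others, so that 3 counts in a library stand for 0.0468 to 0.0575 CPM (counts scaled to a library of 1000000 reads). CPM given for members are scaled by edgeR's trimmed mean of M values (TMM). The tissue label was checked against 10 keratinocyte markers, none of which was at 0; they summed to 24604 to 29377 CPM under anti-OSM and 28797 to 36763 CPM under anti-Ly6G. On the first principal component of all expressed genes, the score of anti-Ly6G replicate 3 was 10.5, against 26.3 and 26.4 for replicates 1 and 2 and -24.0 to -17.1 for the anti-OSM group. In these bulk samples fewer cells of a type and less RNA per cell cannot be told apart.

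By level per transcript length, given as TPM (length-scaled values that sum to 1000000 in a library), the 35 members ranged from Slc38a2 at a mean of 159.6 TPM over the 6 libraries to Slc36a3 at 0.0963. After Slc38a2 came the heavy chain Slc3a2 at 126, the glutamine carrier Slc1a5 (ASCT2) at 76.1, Slc7a5 at 55.2 and Slc38a10 at 53.5 TPM. The next were Slc43a3 at 41.9, which is known as a purine base carrier in spite of its family, Slc7a6 at 38.8 and Slc36a4 at 26.1 TPM. Some neighbours in this order overlapped between libraries, such as Slc43a3 (41.9, 43.8 and 39.3 TPM under anti-OSM and 40.1, 42.8 and 43.9 under anti-Ly6G) and Slc7a6 (40.3, 35.5 and 37.8 TPM under anti-OSM and 34.8, 44.5 and 39.8 under anti-Ly6G). Slc7a5 and Slc38a10 changed places between the groups: Slc7a5 had 36.2, 44.0 and 36.9 TPM under anti-OSM and 72.8, 76.9 and 64.4 under anti-Ly6G, against 57.5, 54.7 and 54.8 and 43.4, 57.2 and 53.2 for Slc38a10. There were 6 members under 1 TPM on average: Slc1a2, Slc1a7, Slc38a11, Slc3a1, Slc1a6 and Slc36a3.

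At the summed count of 30, Slc36a3 lay just inside with 33 counts (0, 0 and 6 under anti-OSM, 8, 10 and 9 under anti-Ly6G), followed by Slc3a1 with 78. Just outside lay Slc38a5, a glutamine and histidine carrier, with 16 counts and Slc7a13 with 15. Slc38a8 had 6, Slc7a14 and Slc7a15 had 4 each, and Slc7a9 and Slc7a12 had 0 in every library. Slc7a9 is the kidney partner of the heavy chain Slc3a1, which itself had 6 to 12 counts under anti-OSM and 8 to 23 under anti-Ly6G.

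**Figure D1:**
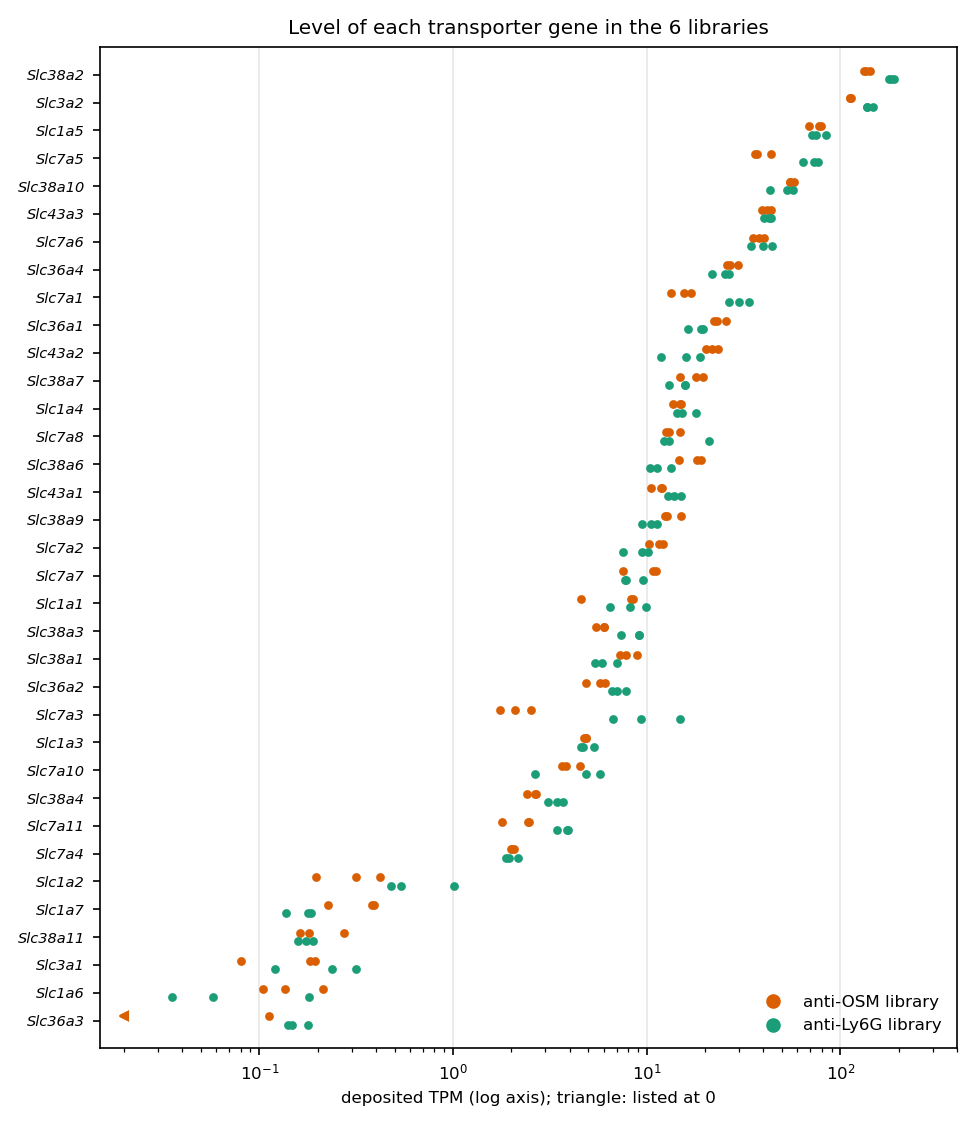
Deposited TPM of the 35 tested transporter genes in each of the 6 libraries on a log axis, ordered by mean level, with anti-OSM libraries in orange and anti-Ly6G libraries in green. Slc38a2 and Slc3a2 lead in all libraries, and the points of Slc7a5, Slc7a1 and Slc7a3 lie apart by group.

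Between the groups, 4 of the 35 members were higher under anti-OSM and 7 were lower in edgeR's quasi-likelihood test with Benjamini-Hochberg adjustment over all 21631 genes, and 24 did not pass. Lower were the leucine and cystine exchangers Slc7a5 and Slc7a11 with their heavy chain Slc3a2, the cationic carriers Slc7a1 and Slc7a3, and the glutamine carriers Slc38a2 and Slc38a3. Higher were Slc36a1, Slc38a9, Slc38a6 and Slc38a1. Of all genes tested, 10.3% were called, 4.89% higher and 5.39% lower. The median log2 fold change (anti-OSM over anti-Ly6G, so negative values are lower with anti-OSM) was -0.03 over the 35 members and 0.01 over all genes. The 3 anti-OSM libraries lay all above the anti-Ly6G libraries in CPM for 9 members and all below for 12, against 16.8% and 16.6% of all genes. All 7 members called lower and all 4 called higher are among these. At least 2-fold differences were seen in 2 members, Slc7a3 and Slc36a3, and in 5.64% of all genes.

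**Figure D2:**
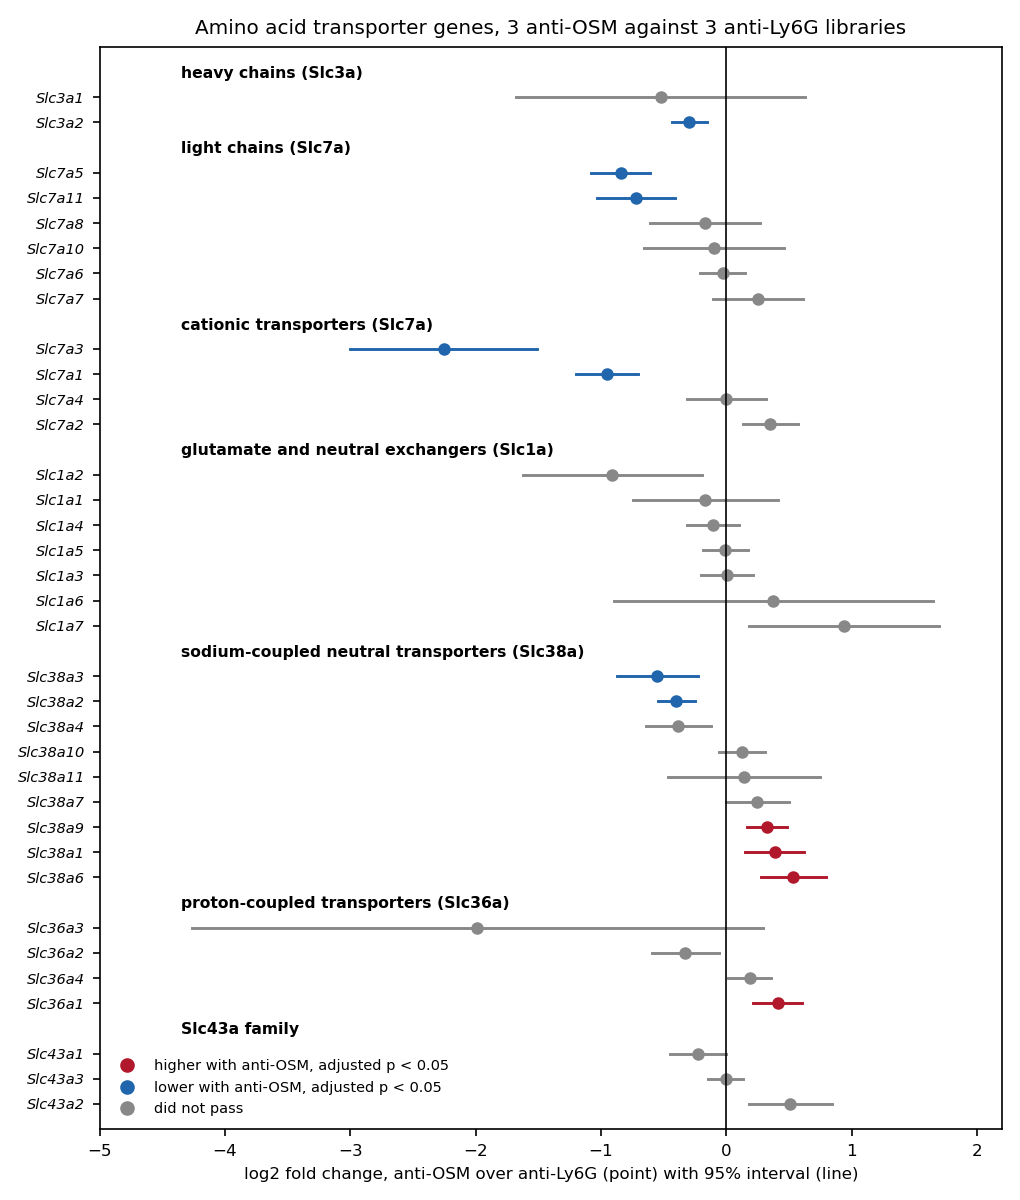
Log2 fold change of each tested transporter gene, anti-OSM over anti-Ly6G, with its 95% interval, grouped by role and coloured by the result of the test. The 7 genes in blue lie left of 0 and the 4 in red right of it, and the widest intervals are those of Slc36a3, Slc1a6 and Slc3a1, all under 1 TPM.

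Among heavy chains, Slc3a2 (gene ID 17254, chromosome 19, 8706882 to 8723369, GRCm38 as all positions here) had 134, 138 and 137 CPM under anti-OSM and 171, 172 and 159.6 under anti-Ly6G. The groups did not overlap, and the 3 anti-OSM libraries lay within a few CPM of each other. The log2 fold change was -0.30 ± 0.06 (SE, 95% interval -0.43 to -0.16, adjusted p = 0.0238), a level 1.23 times as high with anti-Ly6G. Slc3a1, the kidney heavy chain, had a log2 fold change of -0.52 (adjusted p = 0.549, 95% interval -1.68 to 0.63) at under 1 TPM.

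The light chain Slc7a5 (gene ID 20539, chromosome 8, 121881146 to 121907686) was lower by a larger fold than its heavy chain, and their 95% intervals do not overlap. It had 60.6, 75.3 and 63.7 CPM under anti-OSM and 126, 125 and 107 under anti-Ly6G, and the highest anti-OSM library was well below the lowest anti-Ly6G library. Its log2 fold change was -0.84 ± 0.10 (SE, 95% interval -1.08 to -0.61, adjusted p = 0.00473), or 1.80 times as high with anti-Ly6G. Slc7a11 (gene ID 26570, chromosome 3, 50364936 to 50499087), at 2.99 TPM a rare light chain, had 7.91, 10.9 and 11.2 CPM under anti-OSM and 15.7, 16.7 and 17.1 under anti-Ly6G. Anti-OSM replicate 1 was the lowest, and the groups did not overlap. The log2 fold change was -0.72 ± 0.14 (SE, 95% interval -1.03 to -0.41, adjusted p = 0.0178). The other light chains gave no call. Slc7a6 (y+LAT2), which exchanges arginine for glutamine with sodium, had 75.6, 69.7 and 74.2 CPM under anti-OSM and 68.0, 81.1 and 75.0 under anti-Ly6G, which overlapped, and a log2 fold change of -0.03 (adjusted p = 0.840, 95% interval -0.21 to 0.15). Slc7a7 (y+LAT1), its relative in leukocytes and gut, had a log2 fold change of 0.25 (adjusted p = 0.346, 95% interval -0.11 to 0.62), Slc7a8 (LAT2), a carrier of neutral amino acids, had a log2 fold change of -0.17 (adjusted p = 0.612, 95% interval -0.61 to 0.27), and Slc7a10 (Asc-1), which carries small neutral amino acids in adipocytes, had a log2 fold change of -0.10 (adjusted p = 0.834, 95% interval -0.66 to 0.46). For Slc7a8, anti-Ly6G replicate 3 stood at 40.9 CPM and the other 5 libraries at 24.9 to 29.9. Summed over the light chains, the level was 105 to 108 TPM under anti-OSM and 134 to 152 under anti-Ly6G, which is 0.931 to 0.970 and 0.978 to 1.04 times the level of Slc3a2 in the same libraries. Per length, light chain transcripts together were thus close to the level of the heavy chain in both groups.

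The cationic carriers differed among themselves. Slc7a1 (CAT1), the common carrier of arginine and lysine (gene ID 11987, chromosome 5, 148327410 to 148399904), had 53.2, 59.4 and 46.7 CPM under anti-OSM and 106, 112 and 90.6 under anti-Ly6G. Every anti-OSM library was below every anti-Ly6G library, with 1.94 times the level under anti-Ly6G and a log2 fold change of -0.95 ± 0.11 (SE, 95% interval -1.20 to -0.70, adjusted p = 0.00404). Slc7a3 (CAT3), a carrier best known from brain (gene ID 11989, chromosome X, 101079146 to 101090452), had the largest difference of any called member. Its levels were 2.81, 2.39 and 1.98 CPM under anti-OSM and 17.0, 9.94 and 7.27 under anti-Ly6G, so that the anti-Ly6G libraries differed widely among themselves but all lay above the anti-OSM libraries. The log2 fold change was -2.25 ± 0.32 (SE, 95% interval -3.00 to -1.51, adjusted p = 0.00993). The annotated span of Slc7a3 overlaps Snx12, and whether reads were counted by strand is not given; Snx12 itself had a log2 fold change of 0.03 (adjusted p = 0.793). Slc7a2 (CAT2), the inducible arginine carrier of macrophages and muscle, lay on the other side: 44.8, 44.1 and 40.0 CPM under anti-OSM and 29.5, 34.4 and 37.1 under anti-Ly6G, with no overlap, and a log2 fold change of 0.35 ± 0.10 (SE, 95% interval 0.13 to 0.57, adjusted p = 0.0543), which missed the threshold. It passed once anti-Ly6G replicate 3 was left out (adjusted p = 0.0247) and in DESeq2 (adjusted p = 0.0151). Slc7a4, whose transport activity is not established, had a log2 fold change of 0.00 (adjusted p = 0.998, 95% interval -0.32 to 0.32).

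The 7 Slc1a members gave no call. Slc1a5, which brings in glutamine, had 101, 107 and 92.9 CPM under anti-OSM and 102, 108 and 93.6 under anti-Ly6G, and the libraries of both groups covered the same range. Its log2 fold change was -0.01 (adjusted p = 0.966, 95% interval -0.19 to 0.17). Slc1a4 (ASCT1), a carrier of serine and alanine, had a log2 fold change of -0.11 (adjusted p = 0.492, 95% interval -0.31 to 0.10), and Slc1a3, a glutamate carrier of glia, 0.01 (adjusted p = 0.973, 95% interval -0.20 to 0.22). The glutamate carriers Slc1a1 (log2 fold change -0.17, adjusted p = 0.714, 95% interval -0.75 to 0.41) and Slc1a2 (log2 fold change -0.91, adjusted p = 0.104, 95% interval -1.62 to -0.19) were less precisely measured. Slc1a7 and Slc1a6, known from retina and cerebellum, were at 12 to 33 and 6 to 27 counts, with a log2 fold change of 0.94 (adjusted p = 0.110, 95% interval 0.18 to 1.69) and 0.38 (adjusted p = 0.709, 95% interval -0.90 to 1.65).

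The Slc38a family held calls in both directions. Slc38a2 (SNAT2), which takes up glutamine and alanine and is raised when amino acids are scarce (gene ID 67760, chromosome 15, 96687392 to 96699728), had 298, 299.5 and 324 CPM under anti-OSM and 407, 407 and 402 under anti-Ly6G. The anti-Ly6G libraries agreed closely and lay above all anti-OSM libraries, with a log2 fold change of -0.40 ± 0.06 (SE, 95% interval -0.55 to -0.25, adjusted p = 0.0123). Slc38a3 (SNAT3), a glutamine carrier known from liver, kidney and brain (gene ID 76257, chromosome 9, 107651154 to 107668968), had 6.97, 7.61 and 7.52 CPM under anti-OSM and 12.5, 11.3 and 8.62 under anti-Ly6G, where anti-Ly6G replicate 3 came nearest to the anti-OSM libraries. Its log2 fold change was -0.55 ± 0.14 (SE, 95% interval -0.88 to -0.22, adjusted p = 0.0466). On the other side, Slc38a9, the lysosomal protein that signals arginine to mTORC1 (gene ID 268706, chromosome 13, 112656189 to 112738752), had 59.0, 51.6 and 55.8 CPM under anti-OSM and 45.3, 43.1 and 44.2 under anti-Ly6G and a log2 fold change of 0.33 ± 0.07 (SE, 95% interval 0.17 to 0.49, adjusted p = 0.0253). Slc38a6, whose substrates are less well known (gene ID 625098, chromosome 12, 73286739 to 73361998), had 35.1, 28.4 and 34.1 CPM under anti-OSM and 20.8, 21.2 and 25.4 under anti-Ly6G and a log2 fold change of 0.54 ± 0.11 (SE, 95% interval 0.28 to 0.79, adjusted p = 0.0246). Its span overlaps Trmt5, which had a log2 fold change of -0.04 (adjusted p = 0.871). Slc38a1 (SNAT1), a glutamine carrier close to Slc38a2 (gene ID 105727, chromosome 15, 96571418 to 96643438), had 31.5, 25.7 and 28.4 CPM under anti-OSM and 19.9, 21.7 and 23.9 under anti-Ly6G, again without overlap, and a log2 fold change of 0.39 ± 0.10 (SE, 95% interval 0.15 to 0.62, adjusted p = 0.0498). Slc38a9 overlaps the gene models Gm18883 and Gm52034 and Slc38a1 overlaps Gm32457, so their reads may be shared. The call of Slc38a1 lies at the threshold and was lost with DESeq2's size factors (adjusted p = 0.0506). Slc38a1 and Slc38a2 lie 43954 bases apart on chromosome 15 with no coding gene between them and were called in opposite directions, while Slc38a4, next in that row, had a log2 fold change of -0.38 (adjusted p = 0.0722, 95% interval -0.64 to -0.12) with no overlap between groups. The remaining members were Slc38a10 (117, 117 and 115 CPM under anti-OSM and 94.9, 113 and 113 under anti-Ly6G, log2 fold change 0.12, adjusted p = 0.354, 95% interval -0.06 to 0.31), the lysosomal glutamine carrier Slc38a7 (log2 fold change 0.25, adjusted p = 0.186, 95% interval 0.00 to 0.50) and Slc38a11 (log2 fold change 0.14, adjusted p = 0.776, 95% interval -0.47 to 0.75).

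Of the Slc36a family, Slc36a1 (PAT1) moves small amino acids such as proline and glycine with protons and is found at lysosomes and the cell surface. Slc36a1 (gene ID 215335, chromosome 11, 55204322 to 55236330) was higher with anti-OSM. Its levels were 56.9, 57.0 and 66.6 CPM under anti-OSM and 41.9, 47.2 and 46.6 under anti-Ly6G, with no overlap and anti-OSM replicate 3 the highest, and its log2 fold change was 0.41 ± 0.08 (SE, 95% interval 0.22 to 0.61, adjusted p = 0.0239). Its neighbour on chromosome 11, Slc36a2, had a log2 fold change of -0.33 (adjusted p = 0.112, 95% interval -0.60 to -0.06), with all anti-OSM libraries below the anti-Ly6G libraries. Slc36a4 had 78.5, 72.6 and 71.2 CPM under anti-OSM and 59.9, 69.0 and 66.4 under anti-Ly6G and a log2 fold change of 0.19 (adjusted p = 0.149, 95% interval 0.02 to 0.36). Slc36a3, at 0 to 10 counts, had a log2 fold change of -1.99 (adjusted p = 0.240, 95% interval -4.26 to 0.29), a fold change at the floor of detection.

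No Slc43a member passed. Slc43a2 (LAT4), which lets leucine and other large neutral amino acids out of or into the cell without exchange, had 70.8, 68.3 and 79.8 CPM under anti-OSM and 40.8, 50.5 and 62.2 under anti-Ly6G. The groups did not overlap, anti-Ly6G replicate 3 lay nearest to the anti-OSM libraries, and the log2 fold change was 0.51 ± 0.14 (SE, 95% interval 0.18 to 0.84, adjusted p = 0.0621). Without that library it passed (adjusted p = 0.00828), as it did in DESeq2 (adjusted p = 0.00644). Its relative Slc43a1 (LAT3) had a log2 fold change of -0.22 (adjusted p = 0.181, 95% interval -0.45 to 0.00), and Slc43a3 had 54.1, 56.6 and 52.5 CPM under anti-OSM and 53.2, 54.7 and 55.7 under anti-Ly6G with a log2 fold change of 0.00 (adjusted p = 0.969, 95% interval -0.14 to 0.13).

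**Figure D3:**
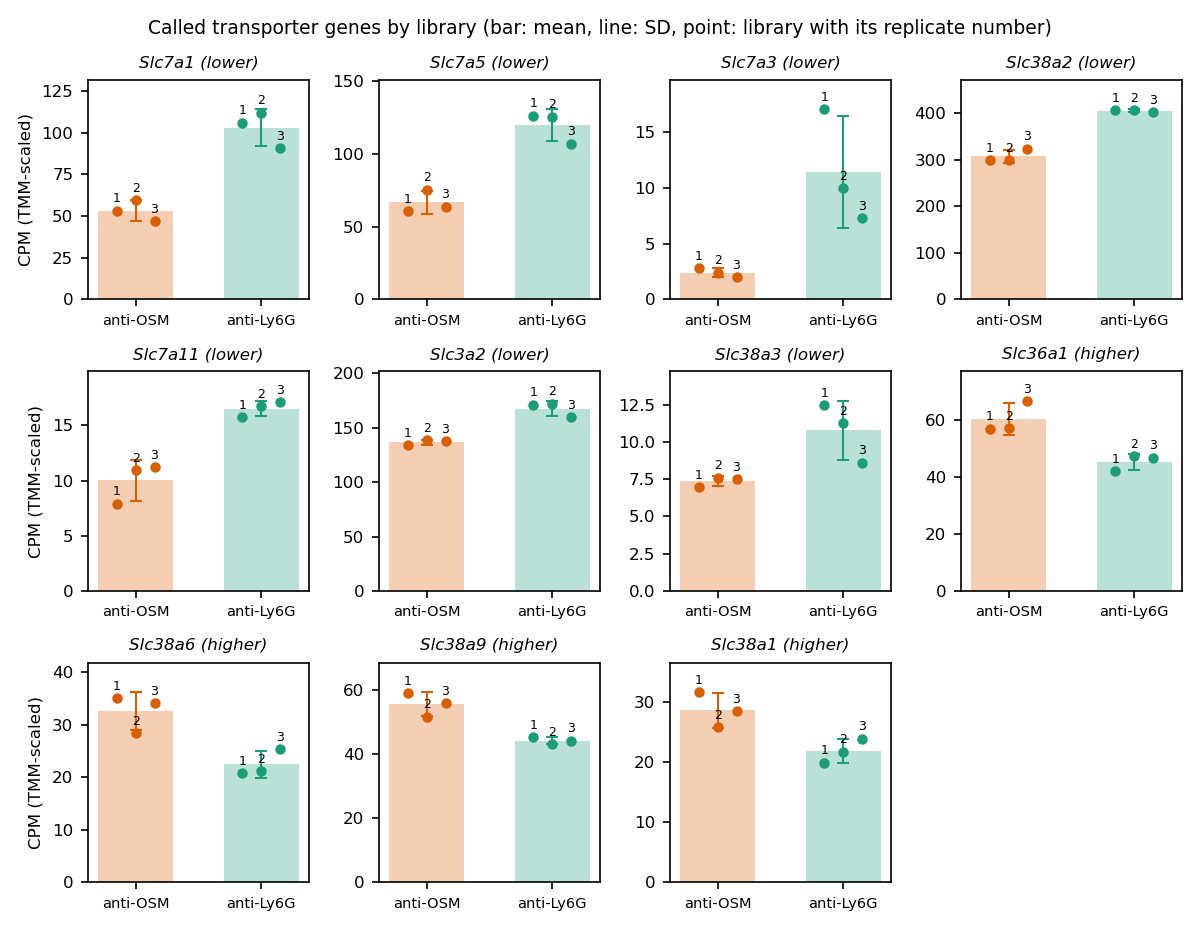
CPM, scaled by the trimmed mean of M values, of the 11 called transporter genes in each library, with bars for group means, lines for SDs (n = 3) and replicate numbers at the points. In each panel the 3 anti-OSM points lie all below or all above the 3 anti-Ly6G points, and Slc7a3 ranges from 7.27 to 17.0 CPM with anti-Ly6G.

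The 11 calls were not equally firm. Slc7a1, Slc7a5, Slc7a3 and Slc7a11 kept theirs when each of the 6 libraries was left out in turn, with adjusted p up to 0.0489. For Slc38a2 the call went when anti-OSM replicate 1 (0.0553) or replicate 2 (0.0527) was omitted. Omitting any 1 anti-OSM library, or anti-Ly6G replicate 1, ended the calls of Slc3a2 (adjusted p = 0.0605 to 0.0874) and Slc36a1 (0.0527 to 0.0824). Those of Slc38a6 (0.0720 to 0.0901) and Slc38a9 (0.0570 to 0.0956) ended when replicate 1 or 3 of anti-OSM, or replicate 1 or 2 of anti-Ly6G, was omitted. Slc38a3 and Slc38a1 held only when anti-Ly6G replicate 3 was the library omitted, and had 0.107 to 0.140 and 0.0623 to 0.148 otherwise. Signs of all 11 were the same throughout.

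With a library fewer, fewer genes of the whole table were called as well, except without anti-Ly6G replicate 3. Omitting anti-OSM replicate 1 left 0 members higher and 4 lower, against 1.19% and 1.8% of all genes. Omitting replicate 2 left 2 and 4 (1.88% and 2.14%), and omitting replicate 3 left 0 and 5 (0.833% and 1.9%). Of the anti-Ly6G group, omitting replicate 1 left 0 and 5 (2.04% and 2.87%), and omitting replicate 2 left 1 and 6 (2.36% and 3.35%). Omitting replicate 3, the library nearest to the other group, gave 6 and 7 (7.23% and 6.47%), with Slc7a2 and Slc43a2 joining the 11. DESeq2 on all 6 libraries called those 11 and 4 more, Slc7a2, Slc43a2, Slc38a4 and Slc1a2, against 7.48% and 7.92% of all genes higher and lower.

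**Figure D4:**
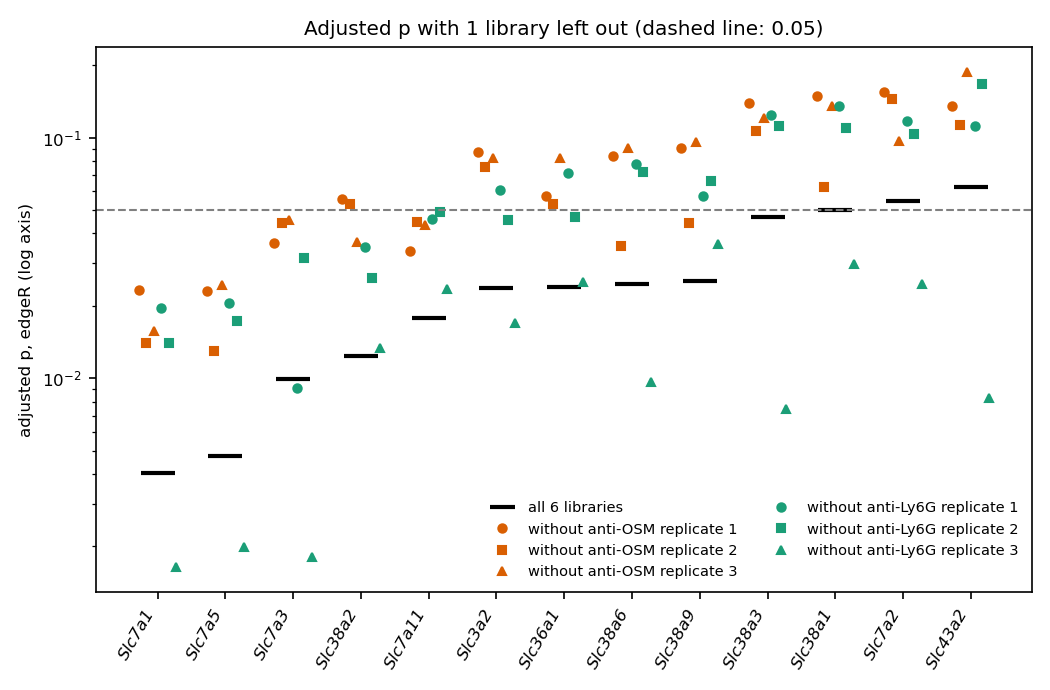
Adjusted p (edgeR, log axis) of the 13 transporter genes called with all 6 libraries or with any library left out, with all 6 libraries (black line) and with each library left out (orange for anti-OSM, green for anti-Ly6G), and the threshold of 0.05 dashed. All symbols of Slc7a1, Slc7a5, Slc7a3 and Slc7a11 lie under the line, and those of the other genes lie on both sides.

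Other genes of amino acid sensing and use were read from the same fit, in lists that were also chosen with results known. The shares to read each list's counts against are those of all genes, 4.89% higher and 5.39% lower with all 6 libraries. For counts with a library omitted, they are the shares of all genes given above for that omission. Of 27 genes of the ATF4 amino acid response, 13 were lower under anti-OSM and 0 higher, and the median log2 fold change was -0.39. Atf4 itself had 203, 190.3 and 203 TPM under anti-OSM and 269.8, 252 and 270.4 under anti-Ly6G, with no overlap and a log2 fold change of -0.39 ± 0.07 (SE, 95% interval -0.55 to -0.22, adjusted p = 0.0169). The asparagine synthetase gene Asns (log2 fold change -1.01, adjusted p = 0.00277), the folate cycle enzyme gene Mthfd2 (log2 fold change -1.04, adjusted p = 0.00305) and the ATF4 target Trib3 (log2 fold change -1.11, adjusted p = 0.00475) had the smallest p of the list. Asns had 43.3, 44.1 and 44.2 TPM under anti-OSM and 99.1, 89.1 and 79.9 under anti-Ly6G. The groups did not overlap, and the anti-OSM libraries lay closer together than the anti-Ly6G libraries. Also lower were the serine synthesis genes Phgdh (log2 -0.43), Psat1 (log2 -0.35) and Psph (log2 -0.69), and Sesn2 (log2 -0.69), which binds leucine and restrains mTORC1. Omitting anti-OSM replicate 1 or 3 brought the 13 to 6, where 1.8% and 1.9% of all genes were lower. Omitting another library gave 9 to 13, where 2.14% to 6.47% of all genes were lower.

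For the carriers of arginine, the genes of arginine and polyamine use had 2 higher and 3 lower of 18, with a median log2 fold change of -0.06. Lower were Ass1, which makes arginine's precursor (62.4, 80.5 and 69.0 TPM under anti-OSM and 169, 149.8 and 132 under anti-Ly6G; log2 fold change -1.06, adjusted p = 0.00527), Nos1 (log2 -0.95), a nitric oxide synthase of nerve and muscle, and the spermidine synthase gene Srm (log2 -0.51). Gatm (log2 0.49) and Gamt (log2 0.75), which make creatine, were higher. Omitting any library but anti-Ly6G replicate 3 left 1 gene of this list higher. The arginase gene Arg1 (log2 fold change -0.75, adjusted p = 0.112) and Odc1 (log2 fold change -0.27, adjusted p = 0.140), the first enzyme of polyamine synthesis, did not pass.

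For the glutamine carriers, 0 genes of glutamine and glutamate use were higher and 7 of 14 lower, with a median log2 fold change of -0.33. Among those lower were the proline synthesis gene Aldh18a1 (log2 fold change -0.59, adjusted p = 0.00473) and Gfpt2 (log2 fold change -0.54, adjusted p = 0.0154), which uses glutamine to make amino sugars. Omitting anti-OSM replicate 1, 2 or 3 left 3, 2 and 4 of these genes lower, and omitting anti-Ly6G replicate 1 left 4. Without anti-Ly6G replicate 2 there were 6 lower and 1 higher, and without anti-Ly6G replicate 3 there were 6 lower and 0 higher. The genes of cystine and glutathione use had 1 higher and 4 lower of 13, with a median log2 fold change of -0.22: Cth, which makes cysteine, had 5.23, 5.76 and 5.40 TPM under anti-OSM and 18.4, 15.6 and 13.0 under anti-Ly6G (log2 fold change -1.49, adjusted p = 0.00305), and Cbs (log2 -1.14), Srxn1 (log2 -0.78) and Gss (log2 -0.35) were also lower. Gclm, of the first step of glutathione synthesis, was higher (log2 fold change 0.37, adjusted p = 0.0250). Omitting any library but anti-Ly6G replicate 3 left 0 of these higher and 2 lower.

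Of the genes through which mTORC1 senses leucine and arginine, 2 described above were not in the mTORC1 list. These were Sesn2, called lower (log2 fold change -0.69, adjusted p = 0.00775), and Slc38a9, called higher (log2 fold change 0.33, adjusted p = 0.0253). The 33 tested genes of the list had 1 higher and 0 lower, with a median log2 fold change of -0.01. The 1 was Fnip1 (log2 fold change 0.38, adjusted p = 0.0132), a partner of folliculin, and Mtor (log2 fold change -0.23, adjusted p = 0.113) and Rragd (log2 fold change -0.32, adjusted p = 0.0631) missed the threshold. Omitting anti-OSM replicate 3 left 0 of the list higher, and omitting anti-Ly6G replicate 3 gave 3 lower. Breakdown of branched-chain amino acids had 0 higher and 1 lower of 14 (median log2 fold change -0.02): Bcat1, which starts that breakdown in the cytosol, had 1.28, 1.12 and 1.12 TPM under anti-OSM and 2.11, 2.59 and 2.75 under anti-Ly6G (log2 fold change -1.05, adjusted p = 0.00307), while Dbt (log2 fold change -0.28, adjusted p = 0.146) and Ivd (log2 fold change -0.11, adjusted p = 0.310) did not pass. Amino acid and peptide carriers outside the 6 families had 0 higher and 2 lower of 26 (median log2 fold change -0.08), the mitochondrial carriers Slc25a12 (log2 fold change -0.25, adjusted p = 0.0340) and Sfxn1 (log2 fold change -0.24, adjusted p = 0.0404). Omitting anti-Ly6G replicate 3 gave 3 lower, and omitting any other library left 0 lower. Omitting anti-Ly6G replicate 2 gave 1 higher. Slc25a13, the second aspartate and glutamate carrier of mitochondria, did not pass (log2 fold change -0.41, adjusted p = 0.0530).

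**Figure D5:**
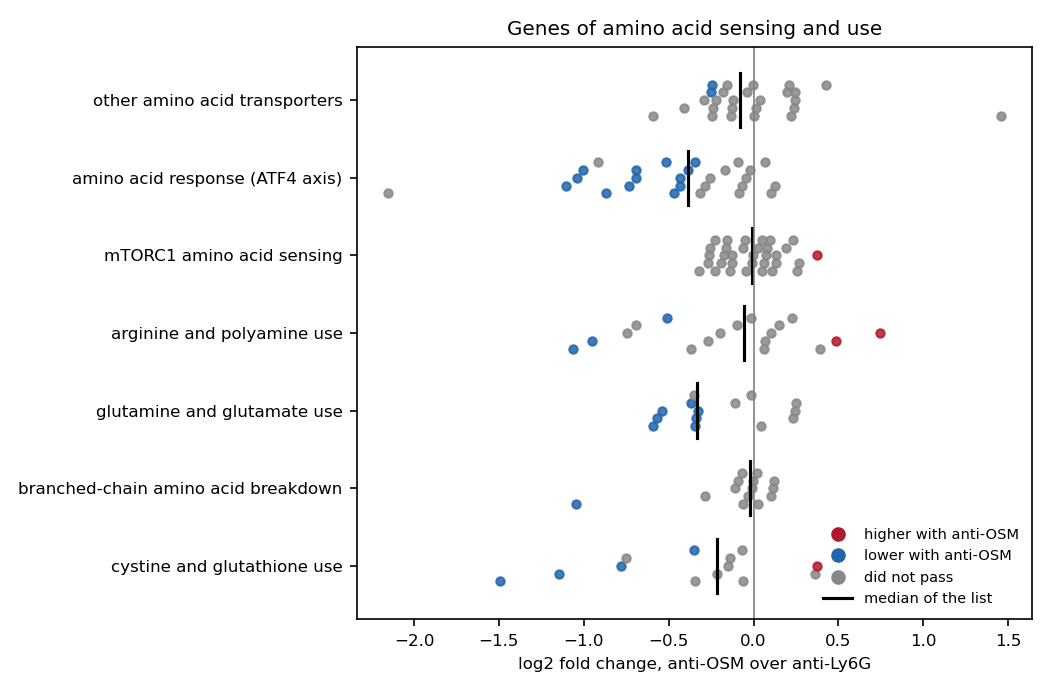
Log2 fold change, anti-OSM over anti-Ly6G, of each tested gene in 7 lists of amino acid sensing and use, coloured by the result of the test, with a black line at each list's median. The points of the ATF4 response lie mostly left of 0 (median -0.39), and those of mTORC1 sensing lie on both sides (median -0.01).

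Markers of several cell types also differed between the groups. Their counts are to be read against the same 4.89% higher and 5.39% lower of all genes. Activated keratinocyte markers (5 of 8 lower, 0 higher) summed to 2357 to 4547 CPM under anti-OSM and 6503 to 9840.1 CPM under anti-Ly6G. Skeletal muscle markers (9 of 10 lower, 0 higher) summed to 3568 to 4224 CPM under anti-OSM and 5677 to 6038 CPM under anti-Ly6G. Hair follicle markers (2 of 8 lower) summed to 103, 126 and 98.5 CPM in anti-OSM replicates 1 to 3. In anti-Ly6G replicates 1 to 3 they summed to 731, 407 and 371 CPM. Cartilage markers (7 of 9 tested lower) summed to 200.1 to 214 CPM under anti-OSM and 372 to 411 CPM under anti-Ly6G. Sebocyte markers (1 of 7 lower) summed to 2461 to 4454 CPM under anti-OSM and 4842 to 5721 CPM under anti-Ly6G. Fibroblast markers (5 of 8 higher) summed to 9709 to 10055 CPM under anti-OSM and 5821 to 8392 CPM under anti-Ly6G. Macrophage and monocyte markers (4 of 10 higher) summed to 2582 to 3136 CPM under anti-OSM and 1523 to 2279 CPM under anti-Ly6G, and dendritic cell markers (6 of 8 higher) to 333 to 415 CPM under anti-OSM and 210.1 to 253 CPM under anti-Ly6G. Mast cell markers (5 of 8 higher) summed to 610.5 to 688 CPM under anti-OSM and 365 to 496 CPM under anti-Ly6G and eosinophil markers (3 of 6 tested higher) to 95.2 to 104 CPM under anti-OSM and 30.8 to 52.3 CPM under anti-Ly6G. T cell markers (2 of 8 higher) summed to 74.3 to 85.8 CPM under anti-OSM and 47.9 to 64.5 CPM under anti-Ly6G. B and plasma cell markers (2 of 6 higher) summed to 35.6 to 46.3 CPM under anti-OSM and 14.6 to 21.5 CPM under anti-Ly6G. Sums of endothelial (0 of 7 called), Schwann cell (1 of 7 higher) and melanocyte markers (0 of 6 called) overlapped between the groups. No marker of these lists was at 0 in all libraries. Their part in the results was not tested. Adipocyte markers, of interest for Slc7a10, summed to 362 to 409.6 CPM under anti-OSM and 369 to 418 CPM under anti-Ly6G, with 1 of 8 lower. Neutrophil markers (0 of 7 tested called) summed to 70.2 to 126 CPM under anti-OSM and 54.7 to 84.8 CPM under anti-Ly6G, with Ly6g at 3 counts or fewer in every library.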

How the data were processed

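The deposited table gives 3 values per gene and library. Read counts were deposited as whole numbers, per the file headers; the sources used here do not state how reads were assigned to genes, or whether by strand. FPKM values, per the file headers, were used only to check the columns. TPM values, per the file headers, sum to 1000000 in each library and were used for levels between genes. The submitters' processing notes name HISAT2 2.1.0, Trimmomatic 0.38, StringTie 2.1.3b, edgeR 3.40.2 and SAMtools 1.9, with no roles, and mm10. Positions are from RefSeq on GRCm38.p6, the assembly behind mm10, and all 35 members matched by gene ID.

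Rows with a summed count of 30 or more over the 6 libraries were fitted with edgeR 4.0.16 (R 4.3.3): TMM scaling, robust quasi-likelihood, 2-sided F-tests, Benjamini-Hochberg adjustment over 21631 genes, threshold 0.05, no covariate. CPM use TMM-scaled library sizes; SEs and intervals derive from the F statistic. The same steps were run on counts simulated from the spread fitted to these libraries, as a check of the steps only. Its outcome is not reported here and bears on no single call. Intervals and floors cover counting error or spread between libraries only. Within a group, chi-square divided by the number of genes was 26.2 or more for every pair of libraries, and none was treated as a duplicate.

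Members and gene lists were chosen with earlier results of these data known. Values in each library are given for called members, members with a 2-fold difference at 0.5 TPM or more, the 8 most abundant and 9 of set interest; each list gives up to 3 genes by p and others that passed, apart from some not reported here. Alternatives tried were DESeq2 1.42.0, limma-voom (limma 3.58.1), other scalings and filters, a non-robust fit, a replicate block and leaving out each library.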

Additional observations from a re-analysis of the deposited data

How the results depend on the processing

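Direction was kept for all 11 called transporters under every scaling, tool, filter and left-out library tried. Leaving out 1 library gave 0 to 6 members called higher (4 with all 6 libraries) and 4 to 7 lower (7). In the 7 lists of amino acid sensing and use together it gave 1 to 5 genes higher (4) and 14 to 33 lower (30). Of all genes, 0.833% to 7.23% were then called higher (4.89%) and 1.8% to 6.47% lower (5.39%). Dropping a library leaves 2 in a group. DESeq2 called 15 members, including all 11 called by edgeR, and 8 genes of the 7 lists higher. Its count of genes lower in those lists is not reported here. DESeq2 also called more of all genes, 7.48% higher and 7.92% lower, against 4.89% and 5.39% in edgeR. With the replicate block, 4 members were higher and 6 lower (1213 and 1177 of all genes): Slc38a1 (adjusted p = 0.0678) and Slc38a3 (0.0580) lost their calls and Slc43a2 (0.0204) gained one. The labels do not say that the numbers pair the libraries, and same-numbered libraries had correlations of deviations over genes of -0.03, 0.11 and 0.26, so the block was not used for the values reported. Slc38a3 did not pass in limma-voom (adjusted p = 0.0683), nor did Slc38a1 (0.0572); the cause was not tested. Depth limits members under 1 TPM, where intervals are wide.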
